A study of Arabidopsis thaliana with 16 samples.

Results

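The genetic interaction between nup50c and nup82 was measured in whole seedlings of Arabidopsis thaliana as the departure of the double mutant from the sum of the single-mutant effects. The members were chosen by genotype: 8 of the 16 libraries, 2 each of nup50c nup82, nup50c, nup82 and wild type (WT). All seedlings were 9 days old, grown on medium with sucrose and left untreated, and mRNA was sequenced in strand-specific libraries. The labels name no allele, no insertion line and no WT strain. Nor do they tell whether replicate libraries stem from separate cultures; p-values therefore measure only the spread between these samples, which may be technical. The other 8 libraries are labelled with the same 4 combinations in a nup136 mutant and were used as a second background. There the nup82 label was not borne out by the transcript that marked both nup82 genotypes here. For each gene the departure was the nup50c nup82 effect on the log2 scale minus the nup50c effect minus the nup82 effect, each against WT. A positive departure (higher than the sum) means more transcript in the double mutant than the single effects add up to, and a negative one (lower than the sum) less.

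NUP50C, NUP82 and NUP136 encode proteins of the nuclear basket, the filamentous structure on the nuclear face of the nuclear pore complex, through which mRNA leaves and proteins enter the nucleus. Proteins of the NUP50 family bind importin alpha and Ran, and NUP82 is a plant protein related to NUP136. Mutations in basket components of Arabidopsis are known to alter mRNA export, flowering time, defence and hormone responses.

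NUP50C (AT4G11790, chromosome 4, 7090313 to 7093492 on the TAIR10 coordinates of the deposited table) followed the labels. It stood at 8.99 and 8.77 CPM (counts scaled to library size with TMM factors) in the libraries labelled nup50c nup82, 15.0 and 13.2 in nup50c, 38.0 and 42.5 in nup82, and 40.6 and 43.3 in WT. Its level was lower in nup50c nup82 than in nup50c (log2 difference -0.67, adjusted p = 0.00462), while its departure of -0.60 ± 0.19 (SE) did not pass (adjusted p = 0.0594). NUP82 (AT5G20200, chromosome 5, 6816612 to 6821827) followed them only in part, at 31.1 and 26.8 CPM in nup50c nup82, 33.4 and 31.5 in nup50c, 21.7 and 21.4 in nup82, and 29.5 and 35 in WT. The libraries labelled nup82 lay below all others (log2 effect -0.58, adjusted p = 0.00563), and those labelled nup50c nup82 overlapped with WT (-0.15, adjusted p = 0.614). NUP82 was higher in nup50c nup82 than in nup82 (log2 difference 0.43, adjusted p = 0.031). Its departure of 0.41 ± 0.15 (SE) did not pass (adjusted p = 0.136). AT2G41980, a SINA-type ubiquitin ligase gene on another chromosome, was low in the 4 libraries labelled nup82 or nup50c nup82, at 0.451 and 0.741 CPM in nup50c nup82, 18.4 and 19.0 in nup50c, 0.504 and 0.527 in nup82, and 19.2 and 18.5 in WT. In the nup136 background AT2G41980 lacked this low level under the nup82 label, and NUP82 was slightly lower in nup82 nup136 only. AT2G41980 stood at 21.4 and 23.8 CPM in the libraries labelled nup50c nup82 nup136, 17.8 and 15.7 in nup50c nup136, 10.5 and 15.3 in nup82 nup136, and 16.5 and 12.1 in nup136. NUP82 stood there at 36.7 and 37.5 CPM in nup50c nup82 nup136, 32.8 and 28.9 in nup50c nup136, 29.0 and 26.0 in nup82 nup136, and 33.7 and 29.7 in nup136 (departure 0.47 ± 0.15, adjusted p = 0.0497). The nup82 effect on AT2G41980 differed between the backgrounds (nup82 by nup136 log2 term 5.03 ± 0.30, adjusted p = 2.06e-11). NUP136 was at 42.0 to 53.4 CPM in the 8 libraries without nup136. In the nup136 background NUP136 stood at 18.6 and 20.2 CPM in nup50c nup82 nup136 and 19.9 and 20.6 in nup50c nup136. It was at 33.9 and 23.4 in nup82 nup136 and 21.8 and 19.6 in nup136 (nup82 by nup136 log2 term 0.65 ± 0.17, adjusted p = 0.02). Whether the nup82 lesion is the same in both sets of libraries, or in nup82 and nup50c nup82, cannot be told from the labels. The genotypes are called by their labels throughout.

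Depth was 38003229 to 45100843 counts in the 8 libraries, and 23240 to 23515 genes had at least 1 count in each. All 21 root markers and 33 of 34 photosynthesis genes had counts in each of the 8 libraries, whereas seed storage genes summed to no more than 2.13 CPM. In bulk seedlings, fewer cells of a type and less RNA per cell cannot be told apart.

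Of 22427 genes tested, 1073 departed from the sum (4.78%), 517 higher (2.31%) and 556 lower (2.48%), by the quasi-likelihood test of edgeR at an adjusted p under 0.05. The 3 effects behind the departure called fewer genes each. Against WT, 203 genes changed in nup50c nup82 (0.905%), 126 higher (0.562%) and 77 lower (0.343%). In nup50c 389 changed (1.73%), 207 higher (0.923%) and 182 lower (0.812%), and in nup82 312 changed (1.39%), 192 higher (0.856%) and 120 lower (0.535%). These 3 comparisons share the WT libraries. The count of departures varied with single libraries: leaving out nup50c nup82 replicate 1 gave 695 and nup50c replicate 2 gave 515, nup82 replicates 1 and 2 gave 625 and 690, and WT replicate 2 gave 657. All 1073 genes kept their sign in each of those fits. Departures were spread over the genome, at 4.44% to 5.07% of the tested genes of each of the 5 chromosomes.

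Most of the departing genes had one common form. In 1034 of 1073 (96.4%, against 58.5% of all tested genes) both single effects had the sign opposite to the departure. The double mutant then stood near WT. Among the 517 genes higher than the sum, the median log2 effects were 0.091 in nup50c nup82, -0.31 in nup50c and -0.26 in nup82. Among the 556 lower than the sum they were -0.055 in nup50c nup82, 0.36 in nup50c and 0.35 in nup82. The double mutant lay within 0.25 log2 of WT for 782 genes, and nearer to WT than both single mutants for 757. Its mean was above those of the other 3 genotypes, WT included, in 378 of the 517 genes higher than the sum. It was below them in 329 of the 556 lower ones. No share over all tested genes was taken for these counts of the double mutant's position. Only 0.905% of all tested genes changed in nup50c nup82 against WT, so nearness to WT alone does not set the departing genes apart. In 765 genes (71.3%) the 4 single-mutant libraries all lay on one side of the 4 libraries of nup50c nup82 and WT, which held for 8.73% of all tested genes. These shares come from the contrast that chose the genes and describe them; they carry no test. The contrast sets the 4 libraries of nup50c nup82 and WT against the 4 of the single mutants, and the labels give no batch, so the interaction and any other difference between those 2 sets of libraries cannot be told apart. On the linear scale, where effects are added as CPM, all 1073 genes kept the sign of their departure.

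**Figure D1:**
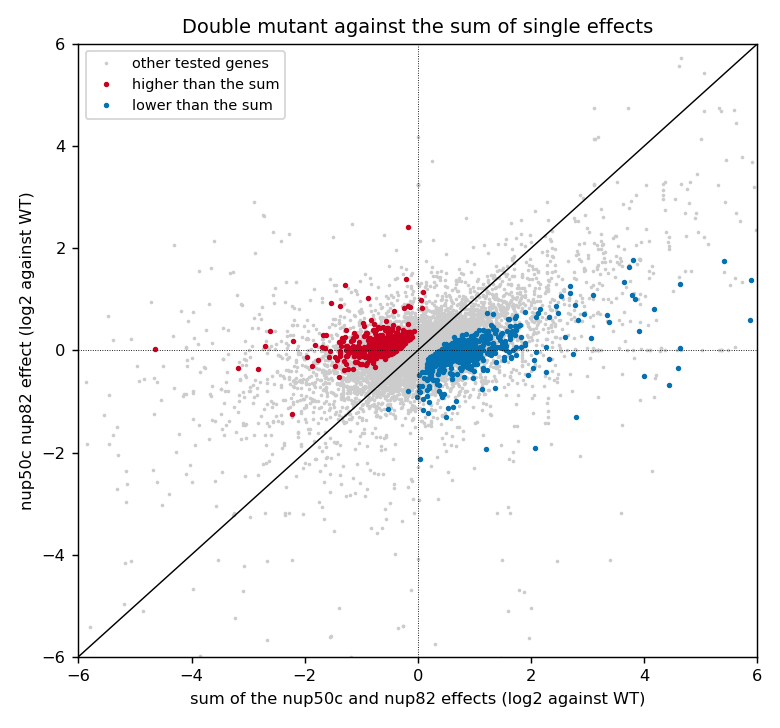
Each point is a tested gene, with the sum of the nup50c and nup82 effects against WT on the horizontal axis and the nup50c nup82 effect against WT on the vertical axis, both in log2. The diagonal marks additivity. The genes called higher (red) and lower (blue) than the sum lie along the horizontal line at no effect of the double mutant, apart from the diagonal; 145 tested genes fall outside the axes.

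By the comparisons with WT, 131 of the departing genes changed the same way in both single mutants (54 of those higher than the sum, 77 of those lower). Another 196 changed in nup50c only and 87 in nup82 only among the single mutants. In 38 genes the double mutant alone differed from WT (11 higher than the sum, 27 lower). For the other 621 genes none of the 3 comparisons with WT passed, and only their combination did.

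The phosphoethanolamine N-methyltransferases, which make the phosphocholine head group of membrane lipids, gave the departure with the lowest adjusted p and also an opposite one. NMT3 (AT1G73600, chromosome 1, 27669152 to 27673572) stood at 241 and 254 CPM in nup50c nup82, 326 and 325 in nup50c, 375 and 362 in nup82, and 96.4 and 99.9 in WT. It was therefore raised in all 3 mutants, and less in the double than in either single mutant. The single effects of 3.32-fold in nup50c and 3.76-fold in nup82 would add on the log2 scale to 1220 CPM; the double mutant rose 2.52-fold (departure -2.31 ± 0.12, adjusted p = 1.82e-12). XPL1 (AT3G18000, chromosome 3, 6154363 to 6157552) stood at 124 and 107 CPM in nup50c nup82, 138 and 125 in nup50c, 119 and 123 in nup82, and 256 and 290 in WT. It fell in every mutant to about one level: to 0.424 of WT in nup50c nup82, 0.482 in nup50c and 0.443 in nup82 (departure 0.99 ± 0.12, adjusted p = 1.09e-05). NMT2 of the same family was near one level in all, at 271 and 276 CPM in nup50c nup82, 275 and 278 in nup50c, 278 and 269 in nup82, and 289 and 286 in WT (departure 0.06, adjusted p = 0.843). NMT3 and XPL1 kept their calls without any 1 of the 8 libraries.

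The bases before the annotated start of these 2 genes are shown because the genes moved in opposite directions in the same libraries. They are the 250 bases upstream on the plus strand of RefSeq TAIR10.1, at chr1:27668902-27669151 for NMT3 and chr3:6154113-6154362 for XPL1. Capitals mark matches on either strand to 6 motifs: the G-box (CACGTG), W-box (TTGACC or TTGACT), heat shock element (GAANNTTC or TTCNNGAA), GCC-box (GCCGCC), evening element (AAAATATCT) and CRT (CCGAC). The NMT3 window held no match and the XPL1 window held a W-box and a CRT.
NMT3: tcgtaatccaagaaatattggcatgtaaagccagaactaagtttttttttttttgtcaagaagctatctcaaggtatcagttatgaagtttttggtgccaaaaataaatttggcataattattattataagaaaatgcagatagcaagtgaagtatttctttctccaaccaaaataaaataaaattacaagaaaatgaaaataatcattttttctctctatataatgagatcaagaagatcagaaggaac
XPL1: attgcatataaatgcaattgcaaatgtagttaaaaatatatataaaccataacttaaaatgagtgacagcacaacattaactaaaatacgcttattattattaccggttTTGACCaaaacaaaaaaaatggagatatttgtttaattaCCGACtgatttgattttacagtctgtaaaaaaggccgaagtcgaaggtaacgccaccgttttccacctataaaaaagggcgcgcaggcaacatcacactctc

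Among jasmonate genes, ORA47 gave a departure of another kind, raised in the single mutants and at the WT level in the double. ORA47 (AT1G74930, chromosome 1, 28143851 to 28145058), an ERF transcription factor that activates jasmonate synthesis genes, stood at 2.12 and 1.79 CPM in nup50c nup82, 14.1 and 14.1 in nup50c, 7.30 and 5.22 in nup82, and 2.13 and 1.62 in WT. The 4 single-mutant libraries lay apart from the 4 others, which overlapped (departure -4.58 ± 0.38, adjusted p = 2.47e-08). Of 33 tested genes of jasmonate synthesis and of the JAZ repressors, 5 were lower than the sum and 0 higher (all tested genes, 2.48% and 2.31%). The list median was -0.30 against -0.0013 over all tested genes. The list was not back at WT as a whole: against WT, 6 of the 33 rose in nup50c nup82, 7 in nup50c and 3 in nup82, and 0 fell. Over all tested genes 0.562% rose in nup50c nup82, 0.923% in nup50c and 0.856% in nup82. JAZ5, a repressor of jasmonate-responsive transcription, stood at 4.51 and 3.63 CPM in nup50c nup82, 10.9 and 6.62 in nup50c, 5.76 and 10.1 in nup82, and 4.57 and 2.13 in WT (departure -2.34 ± 0.46, adjusted p = 0.0077). JAZ7 behaved otherwise, since it was raised in all 3 mutants, at 8.46 and 6.79 CPM in nup50c nup82, 13.3 and 6.91 in nup50c, 5.89 and 7.83 in nup82, and 2.83 and 1.60 in WT (departure -2.03 ± 0.40, adjusted p = 0.00383). JAZ1 and OPCL1, an acyl-CoA ligase of jasmonate synthesis, were the other departing members (departures -1.18 and -0.99). The synthesis genes LOX2 and AOS did not depart (departures 0.33 and 0.12, adjusted p = 0.13 and 0.707), nor did the repressor JAZ9 (-0.50, adjusted p = 0.521). Without nup50c nup82 replicate 1, 9 members of the list passed. In defence by jasmonate and ethylene, ORA59 alone of 10 genes was lower than the sum, and it lost its call without any 1 of 6 libraries. The median departure of the 10 was -1.98 and 3 had an unadjusted p under 0.05, so the uncalled members cannot be read as additive.

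Of 17 genes of touch and rapid stress responses, 4 were lower than the sum and 0 higher (all tested genes, 2.48% and 2.31%), with a median departure of -0.65. ACS6, an enzyme of ethylene synthesis, stood at 22.2 and 27.9 CPM in nup50c nup82, 62.6 and 48.0 in nup50c, 50.2 and 49.7 in nup82, and 23.9 and 27.1 in WT. Both genotypes with 1 mutation lay above the overlapping libraries of the other 2 (departure -2.11 ± 0.28, adjusted p = 0.000948). TCH2, a calmodulin-like protein, stood at 82.3 and 81.4 CPM in nup50c nup82, 122 and 132 in nup50c, 137 and 155 in nup82, and 115 and 108 in WT, so that the double mutant was lowest (departure -1.02 ± 0.19, adjusted p = 0.00622). SZF1, a zinc finger protein, and ERF5, an ethylene response factor, were lower than the sum as well (departures -1.34 and -1.14), and for both the nup50c nup82 mean was below that of the other 3 genotypes. TCH4, TCH3 and WRKY40 of the same list did not depart (-0.01, 0.33 and 0.01). Of 12 cold genes, CBF1, CBF3 and RD29A were lower than the sum and 0 higher. CBF1 and CBF3, the transcription factors of that response, were at or below 1.26 CPM in all 8 libraries. Only RD29A kept its call without each library, at 51.8 and 51.8 CPM in nup50c nup82, 80.0 and 103 in nup50c, 72.3 and 68.6 in nup82, and 70.3 and 61.0 in WT (departure -0.92 ± 0.18, adjusted p = 0.00366). The count of cold genes was 1 without nup50c replicate 2, nup82 replicate 1 or nup50c nup82 replicate 2.

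Aliphatic glucosinolate synthesis, the pathway of the methionine-derived sulfur defence compounds of the cabbage family, held 8 departing members in the edgeR fit, the most of any list there; by the DESeq2 Wald test phosphate starvation had more (11 against 10), and without nup50c nup82 replicate 1 the jasmonate list had more (9 against 7). Of 20 tested genes, 8 were lower than the sum and 0 higher (all tested genes, 2.48% and 2.31%), with a median departure of -0.47. Against WT, 0 of these 20 genes changed in nup50c nup82, 7 rose in nup50c and 3 rose in nup82. Over all tested genes 0.905% changed in nup50c nup82, 0.923% rose in nup50c and 0.856% rose in nup82. The 0 of 20 in the double mutant is therefore near the share over all tested genes. FMOGS-OX3, a side-chain S-oxygenase, stood at 33.7 and 28.1 CPM in nup50c nup82, 51.3 and 56.5 in nup50c, 47.1 and 47.4 in nup82, and 33.9 and 31.2 in WT (departure -1.34 ± 0.18, adjusted p = 7.08e-05). FMOGS-OX1, with the same activity, had 21.0 and 16.2 CPM in nup50c nup82, 26.4 and 25.6 in nup50c, 21.8 and 23.4 in nup82, and 14.4 and 12.4 in WT (departure -1.24 ± 0.19, adjusted p = 0.000185). In both genes the 4 single-mutant libraries lay above the 4 others, and FMOGS-OX1 was in the double mutant between the single mutants and WT. The sulfotransferases SOT17 and SOT18 of the last core step departed by -1.31 ± 0.24 and -0.79 ± 0.13 (adjusted p = 0.006 and 0.000505). MYB29, a transcription factor of the pathway, and the core enzymes CYP79F1, SUR1 and UGT74C1 completed the 8, with departures of -0.75, -0.66, -0.69 and -0.52. The regulator MYB28 and the chain-elongation enzymes MAM1 and MAM3 did not depart (-0.07, -0.15 and -0.10). Between 6 and 7 members passed without 1 library.

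Genes of sulfur deficiency departed in the same direction. Of 13, 4 were lower than the sum and 0 higher (all tested genes, 2.48% and 2.31%), with a median of -0.54. SDI1, a protein induced by sulfur shortage that represses glucosinolate synthesis, stood at 15.8 and 14.1 CPM in nup50c nup82, 24.6 and 33.9 in nup50c, 20.3 and 27.9 in nup82, and 13.2 and 15.2 in WT (departure -1.74 ± 0.22, adjusted p = 3.54e-05). APR1, the sulfate-reducing enzyme, stood at 115 and 110 CPM in nup50c nup82, 165 and 204 in nup50c, 186 and 172 in nup82, and 130 and 124 in WT (departure -1.21 ± 0.13, adjusted p = 3.11e-06). Both genes were higher in all 4 single-mutant libraries than in the 4 others. BGLU28, a glucosidase, and SHM7, a hydroxymethyltransferase, departed by -1.42 and -0.58. The count was 2 without nup50c replicate 2.

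Among phosphate starvation genes, 7 of 23 were lower than the sum and 0 higher (all tested genes, 2.48% and 2.31%), with a median of -0.57. PS2, a phosphatase, stood at 13.4 and 12.1 CPM in nup50c nup82, 15.5 and 18 in nup50c, 21.2 and 18.1 in nup82, and 9.38 and 6.83 in WT (departure -1.66 ± 0.30, adjusted p = 0.00174). MGD3, which makes galactolipid in place of phospholipid, stood at 10.7 and 11.7 CPM in nup50c nup82, 15.2 and 17.0 in nup50c, 17.1 and 14.2 in nup82, and 7.03 and 6.43 in WT (departure -1.74 ± 0.38, adjusted p = 0.013). In both, the double mutant lay between the single mutants, whose 4 libraries were above all others, and WT. MGD3 lost its call without any 1 of 4 libraries. The remaining departing members were the phosphatases PAP17 and PAP10, the lipid-degrading GDPD1, the transporter PHT1;4 and PHO1;H1. Over the 23 members, 10 had the 4 single-mutant libraries above the 4 others (all tested genes, 4.26%), among them SPX1, SPX3 and PEPC1, whose departures did not pass. The count of 7 was less stable than that of glucosinolate genes, at 2 without nup50c replicate 2, 3 without replicate 2 of the double mutant, and 4 without nup82 replicate 1 or either WT library. Of 20 nitrate genes, 4 were lower and 1 higher than the sum. The lower ones were the transcriptional repressors HHO3, HHO2, LBD38 and LBD39, and the higher one NRT3.1, a partner of nitrate transporters. HHO3 stood at 106 and 107 CPM in nup50c nup82, 143 and 157 in nup50c, 147 and 140 in nup82, and 121 and 125 in WT (departure -0.71 ± 0.11, adjusted p = 0.00018), lowest in the double mutant. The 4 lower ones came to 2 without WT replicate 2, nup50c replicate 2, either nup82 library or nup50c nup82 replicate 1, and NRT3.1 kept its call only without WT replicate 1.

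**Figure D2:**
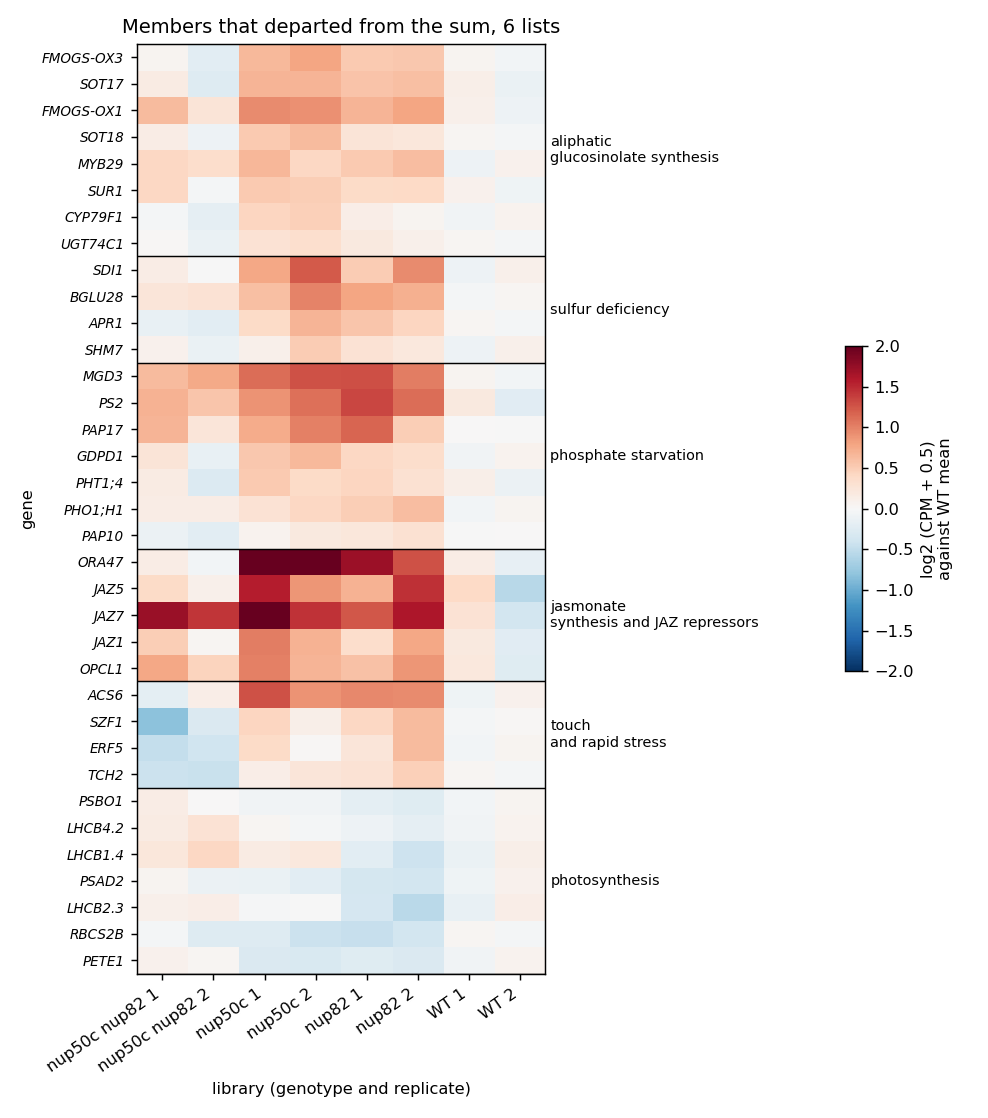
Colours give log2 (CPM + 0.5) of each library (columns, by genotype and replicate) against the mean of the 2 WT libraries, for the called members (rows) of 6 gene lists. In the upper 5 lists the nup50c and nup82 columns are mostly redder than those of nup50c nup82 and WT, except for JAZ7, which is red in all 3 mutants; in the photosynthesis list the nup82 columns are bluer.

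A pair of heat shock factor genes departed in another way, in which the double mutant alone stood apart. HSFA2 (AT2G26150, chromosome 2, 11135624 to 11137792), a heat shock transcription factor, stood at 7.83 and 8.77 CPM in nup50c nup82, 1.74 and 1.29 in nup50c, 1.32 and 1.53 in nup82, and 1.67 and 1.44 in WT. Both libraries of the double mutant lay above the other 6, which overlapped (departure 2.58 ± 0.49, adjusted p = 0.00332). HSFA7A (AT3G51910, chromosome 3, 19265141 to 19266806), a factor of the same family, stood at 23.9 and 29.4 CPM in nup50c nup82, 16.4 and 12.7 in nup50c, 13.3 and 11.7 in nup82, and 17.2 and 14.0 in WT (departure 1.2 ± 0.21, adjusted p = 0.000831). Among the 28 tested heat shock genes these 2 were higher than the sum (2.31% of all tested genes were) and 1 was lower, the repressor HSFB2A, with a list median of 0.28. HSFB2A was higher in the 4 single-mutant libraries than in the 4 others. Against WT, 5 of the 28 rose in nup50c nup82 (HSFA2, HSFA7A, DREB2A, HSP70-4 and HSP101) and 0 fell. In nup50c and in nup82, 0 of the 28 changed. Over all tested genes 0.562% rose in nup50c nup82, 1.73% changed in nup50c and 1.39% changed in nup82. HSP70-4, a chaperone, stood at 63.7 and 74.8 CPM in nup50c nup82, 31.7 and 25.8 in nup50c, 27.5 and 26.8 in nup82, and 26.3 and 31.9 in WT; its departure of 1.37 ± 0.33 was just short of the threshold (adjusted p = 0.0519). HSP101, a disaggregase, HSP90-1 and the co-activator MBF1C were also higher in both nup50c nup82 libraries than in the other 6, with departures of 1.00, 1.80 and 1.48 that did not pass (adjusted p = 0.0519, 0.0672 and 0.22). Outside the list, 3 chaperone genes were among those with the largest departures. AT1G72416, a DnaJ-domain protein, had 71.9 and 76.1 CPM in nup50c nup82, 34.9 and 29.5 in nup50c, 44.0 and 59.0 in nup82, and 74.0 and 69.8 in WT (1.68 ± 0.18, adjusted p = 3.24e-05), and so was low in the single mutants and not raised in the double. The small heat shock protein genes AT5G51440 and AT1G07400 (2.47 and 1.91) were highest in nup50c nup82 but lost their calls without any 1 of 8 and of 5 libraries. HSFA2 and HSFA7A kept theirs throughout.

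**Figure D3:**
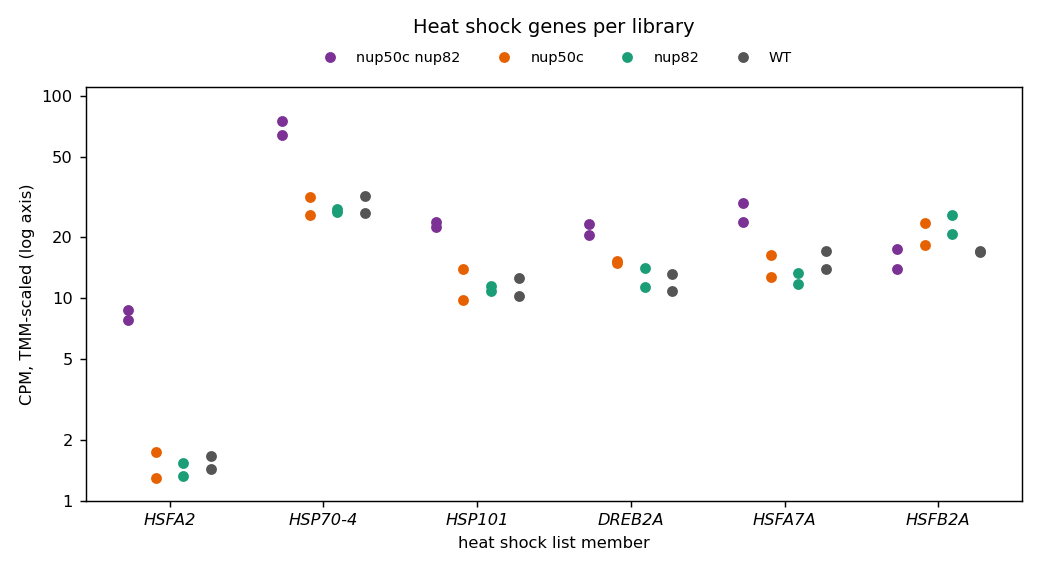
Points give the CPM of each library (log axis) for the 6 heat shock genes that departed from the sum or changed in nup50c nup82 against WT, with the genotypes in the order nup50c nup82, nup50c, nup82 and WT. Both nup50c nup82 points are the top ones for every gene but HSFB2A.

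Upstream sequences of the 2 factors are shown for their heat shock elements, the sites that such factors bind, at chr2:11135466-11135623 for HSFA2 (from the end of the neighbouring gene) and chr3:19264891-19265140 for HSFA7A, both on the plus strand. The capitals mark the same motifs. HSFA2 held 3 heat shock element matches, a pair of which overlap at 88 and 83 bases before the start, and a G-box. HSFA7A held 4, in 2 overlapping pairs. Such a match was present in 15.7% of the 250-base windows of all 22292 tested genes with a window, in 16.3% of the genes higher than the sum and in 19.1% of those lower.
HSFA2: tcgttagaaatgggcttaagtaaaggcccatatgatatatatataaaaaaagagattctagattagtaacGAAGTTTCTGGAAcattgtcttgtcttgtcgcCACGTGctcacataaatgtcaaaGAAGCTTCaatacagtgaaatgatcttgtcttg
HSFA7A: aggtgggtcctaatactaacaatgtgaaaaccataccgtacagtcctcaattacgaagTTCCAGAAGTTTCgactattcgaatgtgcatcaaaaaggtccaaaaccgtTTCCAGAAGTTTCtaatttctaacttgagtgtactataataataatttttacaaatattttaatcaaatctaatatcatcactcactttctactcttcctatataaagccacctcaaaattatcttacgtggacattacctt

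Photosynthesis genes were the list with the most members higher than the sum, 7 of 33 with 0 lower (all tested genes, 2.31% and 2.48%) and a median of 0.18. Differences were small. PETE1, a plastocyanin, stood at 167 and 161 CPM in nup50c nup82, 128 and 126 in nup50c, 132 and 128 in nup82, and 149 and 164 in WT (departure 0.63 ± 0.12, adjusted p = 0.00205). RBCS2B, a small subunit of Rubisco, stood at 1890 and 1630 CPM in nup50c nup82, 1630 and 1440 in nup50c, 1420 and 1510 in nup82, and 2000 and 1890 in WT (0.60 ± 0.12, adjusted p = 0.00239). The light-harvesting genes LHCB2.3, LHCB1.4 and LHCB4.2 and the photosystem genes PSAD2 and PSBO1 followed, with departures between 0.36 and 0.56. Genes within the RBCS family and within the LHCB family are similar in sequence, so their reads may not have been assigned cleanly to single genes. The count fell to 2 without WT replicate 2 or nup82 replicate 2, 3 without nup50c replicate 2 and 4 without nup82 replicate 1. The summed level of the 34 genes was 86970 and 86580 CPM in nup50c nup82, 82400 and 82830 in nup50c, 80240 and 79200 in nup82, and 82270 and 86200 in WT. The summed level of the 21 root markers was 2989 and 2931 CPM in nup50c nup82, 3232 and 3640 in nup50c, 3605 and 3350 in nup82, and 3172 and 3100 in WT, above all others in the 4 single-mutant libraries. That sum was mostly PYK10, a root glucosidase. Without it the sums were 187.9 and 190.5 CPM in nup50c nup82, 220.4 and 200.9 in nup50c, 204.7 and 202.8 in nup82, and 229.7 and 222.6 in WT, highest in WT. The part of organ proportions in the departures was not tested. Of the root markers, EXP18, a root hair expansin, alone departed, at 7.14 and 7.96 CPM in nup50c nup82, 13.4 and 11.4 in nup50c, 15.2 and 14.3 in nup82, and 14.0 and 12.7 in WT; it lost its call without any 1 of 4 libraries.

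Of 15 clock genes, 3 were lower than the sum and 0 higher (all tested genes, 2.48% and 2.31%), with a median of -0.36. PRR9, an early-day repressor, stood at 1.06 and 1.67 CPM in nup50c nup82, 2.05 and 2.95 in nup50c, 2.79 and 1.87 in nup82, and 0.927 and 0.877 in WT (departure -2.23 ± 0.50, adjusted p = 0.00805). PRR5 stood at 63.3 and 56.9 CPM in nup50c nup82, 70.6 and 81.1 in nup50c, 67.0 and 57.9 in nup82, and 53.8 and 58.1 in WT (-0.49 ± 0.13, adjusted p = 0.0307). GI, an evening gene, stood at 105 and 105 CPM in nup50c nup82, 136 and 125 in nup50c, 130 and 123 in nup82, and 116 and 111 in WT (-0.47, adjusted p = 0.0327). The call for GI was lost without any 1 of the 8 libraries, that for PRR5 without any 1 of 5 and that for PRR9 without any 1 of 3. The central factors CCA1, LHY and TOC1 did not depart (-0.36, -0.48 and 0.02). The count was 1 without either WT library or either nup50c nup82 library, and 0 without nup50c replicate 2 or nup82 replicate 1. The time of day of harvest was not given in the sources used here, and its part in the result was not tested. The evening element, a motif of clock-controlled promoters, was in the 250-base window of 34 of 556 genes lower than the sum (6.12%), 12 of 516 higher (2.33%) and 2.44% of all tested genes. Of the other 5 motifs, the G-box was at 9.53%, 6.4% and 7.23% in the same order, and the W-box at 26.6%, 27.5% and 28.4%. These shares are descriptions and were not tested. The window of PRR5 (chr5:8358547-8358796, minus strand) is shown for its evening element, in capitals with a CRT.
PRR5: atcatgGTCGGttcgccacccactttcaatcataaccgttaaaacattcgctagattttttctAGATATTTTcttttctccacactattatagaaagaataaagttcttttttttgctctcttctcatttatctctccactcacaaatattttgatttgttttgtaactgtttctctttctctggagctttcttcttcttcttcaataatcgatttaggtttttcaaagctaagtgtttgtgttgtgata

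Among called protein-coding genes with a mean of at least 1 CPM, those with the largest positive departures were mostly low in both single mutants. SCPL34, a serine carboxypeptidase-like protein, stood at 104 and 107 CPM in nup50c nup82, 59.0 and 49.4 in nup50c, 62.9 and 65.4 in nup82, and 118 and 115 in WT (departure 1.82 ± 0.19, adjusted p = 3.24e-05). AT4G16563, an aspartyl protease, had 39.9 and 40.0 CPM in nup50c nup82, 22.4 and 12.5 in nup50c, 20.9 and 22.1 in nup82, and 51.3 and 51.8 in WT (2.45 ± 0.29, adjusted p = 0.00051). Both fell in each single mutant against WT. In nup50c nup82 neither passed (log2 effect -0.14 for SCPL34 and -0.37 for AT4G16563, adjusted p = 0.751 and 0.5), although both nup50c nup82 libraries were below both WT libraries. ASN1, the asparagine synthetase induced by low sugar and darkness, had 67.6 and 71.2 CPM in nup50c nup82, 27.9 and 29.2 in nup50c, 35.1 and 36.7 in nup82, and 57.1 and 55.3 in WT (1.93 ± 0.27, adjusted p = 0.00189). NAS2, a nicotianamine synthase of metal transport, had the largest value of these, 2.84 ± 0.57, from levels of 2.39 and 1.41 CPM in nup50c nup82, 0.759 and 0.476 in nup50c, 1.03 and 1.01 in nup82, and 1.99 and 2.82 in WT. MIOX4, an inositol oxygenase, and RLP37, a receptor-like protein, were likewise below the 4 other libraries in all 4 single-mutant ones (2.24 and 1.75). MAF5, a flowering repressor named from the FLC clade list, departed less than these, by 1.57 ± 0.31 (adjusted p = 0.00296). MAF5 stood at 5.33 and 4.71 CPM in nup50c nup82, 3.46 and 5.02 in nup50c, 2.11 and 2.47 in nup82, and 5.11 and 6.38 in WT, low in the libraries labelled nup82 alone.

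**Figure D4:**
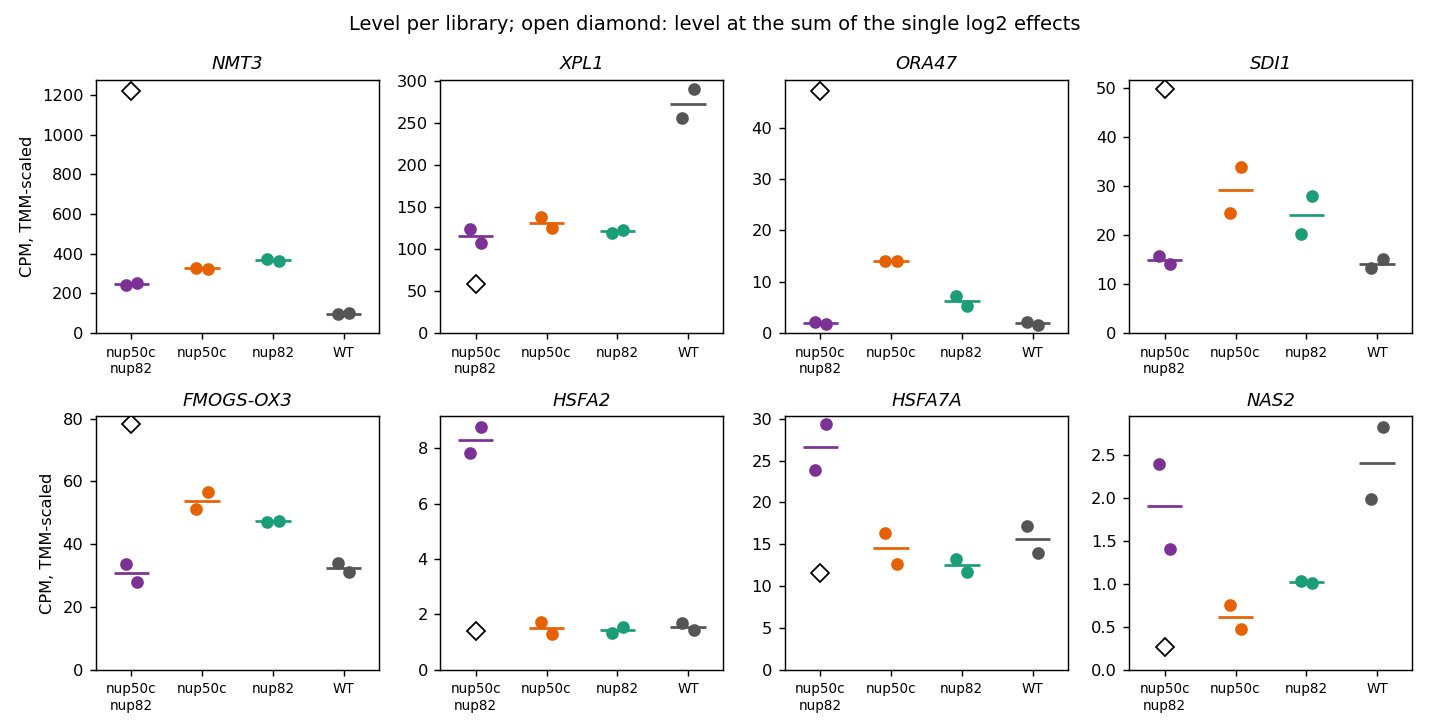
Points give the CPM of each library and short lines the genotype means of 8 genes, in the order nup50c nup82, nup50c, nup82 and WT; the open diamond is the level of nup50c nup82 at the sum of the single log2 effects. NMT3 and XPL1 moved in all 3 mutants, ORA47, SDI1 and FMOGS-OX3 were high and NAS2 low in the single mutants, and HSFA2 and HSFA7A were high in nup50c nup82.

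By the same minimum, the largest negative departures after ORA47 included those of AT1G72920, FRK1, MAPKKK19, NAP, PCR1 and AT1G57630. AT1G72920, a TIR-domain protein, had 6.13 and 8.32 CPM in nup50c nup82, 22.3 and 18.8 in nup50c, 18.7 and 25.3 in nup82, and 10.9 and 8.51 in WT (-2.69 ± 0.27, adjusted p = 4.11e-06). FRK1, a receptor kinase gene used as a marker of pattern-triggered immunity, had 2.33 and 1.03 CPM in nup50c nup82, 3.26 and 3.64 in nup50c, 3.34 and 4.38 in nup82, and 1.45 and 0.798 in WT (-2.81 ± 0.58, adjusted p = 0.0048). For both, the single-mutant libraries all lay above the rest. The kinase gene MAPKKK19 and the senescence factor gene NAP departed by -2.82 and -2.81 in the same pattern; NAP lost its call without nup50c replicate 2. PCR1 and AT1G57630, another TIR-domain protein, stood higher in all 3 mutants than in WT instead, although AT1G57630 did not pass in nup50c nup82 (adjusted p = 0.053). PCR1, which confers cadmium resistance, had 4.3 and 2.96 CPM in nup50c nup82, 4.46 and 3.98 in nup50c, 4.16 and 1.39 in nup82, and 0.0452 and 0.266 in WT (-4.41 ± 0.92, adjusted p = 0.012). PCR1 lost its call without WT replicate 1 or nup50c nup82 replicate 2, and AT1G57630 without WT replicate 1 or nup82 replicate 1. GSTU3, a glutathione transferase, had 2 counts in the WT libraries together, against 44 in nup50c nup82, 128 in nup50c and 65 in nup82. Of 13 glutathione transferase genes GSTU3 alone departed in this fit, while 3 did by the DESeq2 Wald test, 2 without nup50c replicate 1 and 3 without nup82 replicate 2. Its ratios to WT at equal depth were 22.8 (95% exact interval 5.95 to 194) in nup50c nup82, 61 (16.5 to 509) in nup50c and 32.1 (8.53 to 271) in nup82, which cover counting error only. Among 29 genes of salicylic acid defence, WRKY70 and FMO1 were lower than the sum (2.48% of all tested genes were lower and 2.31% higher). Of these, 0 or 1 passed without any 1 library. Of 11 genes of abscisic acid and drought, the phosphatase ABI1 and the transcription factor RD26 were lower (-0.72 and -1.07); RD26 lost its call without nup50c replicate 2, which left 1. Of 20 flavonoid genes, the regulators MYB12 and MYBL2 and the isomerase TT5 were lower and the reductase DFR higher, and of 26 iron genes NAS2 and the ferric reductase FRO3 were higher; only MYBL2 and NAS2 of these 6 kept the call without each library.

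Among genes of the nuclear basket and lamina, CRWN1, a lamina-like protein, was the only one of 10 that departed, at 135 and 133 CPM in nup50c nup82, 121 and 113 in nup50c, 118 and 112 in nup82, and 137 and 138 in WT (0.46 ± 0.11, adjusted p = 0.0134; not called without WT replicate 2, nup50c replicate 2 or nup82 replicate 2). Of 25 nuclear pore genes 0 departed in edgeR and 0 by the DESeq2 Wald test, with 3 at an unadjusted p under 0.05. Over all 22427 tested genes, 3915 had an unadjusted p under 0.05 in edgeR and 1439 departed by the DESeq2 Wald test. Of 35 transport and export genes RANBP1B, which acts in the Ran cycle, alone departed (-0.47), against 4.78% of all tested genes. It lost its call without any 1 of 5 libraries. Of 14 cell division genes, CYCD3;1 was higher and CYCA1;1 lower than the sum, but CYCA1;1 lost its call without any 1 of the 8 libraries and CYCD3;1 without any 1 of 4. Of 9 auxin response genes, 6 of mitochondrial stress and 8 of seed storage, 0 departed in edgeR; 1, 3 and 0 had an unadjusted p under 0.05, and 0, 2 and 0 departed by the DESeq2 Wald test.

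The departure can also be read as the change of one mutation's effect when the other is present, between comparisons that share no library. The nup82 mutation changed 987 genes in nup50c (nup50c nup82 against nup50c; 4.4%), 539 higher (2.4%) and 448 lower (2%), and 312 genes in WT. The nup50c mutation changed 762 genes in nup82 (nup50c nup82 against nup82; 3.4%), 331 higher (1.48%) and 431 lower (1.92%), and 389 in WT. For SDI1 the nup82 effect was -0.97 in nup50c (adjusted p = 0.000714) and 0.77 in WT (adjusted p = 0.0137). The nup50c effect on SDI1 was -0.70 in nup82 (adjusted p = 0.0152) and 1.05 in WT (adjusted p = 0.000711). For APR1 the nup82 effect was -0.72 in nup50c (adjusted p = 4.15e-05) and 0.50 in WT (adjusted p = 0.00567). By these values SDI1 was lower with each mutation where the other was present and higher where it was not. Both genes were chosen by the departure, which is the difference of these effects, so the opposite signs carry no test. As above, the interaction and any other difference between the 2 sets of libraries cannot be told apart. For XPL1 neither mutation had an effect that passed once the other was present (-0.18 for nup82 and -0.06 for nup50c; adjusted p = 0.261 and 0.766). For NMT3 each then lowered it, by -0.40 for nup82 and -0.58 for nup50c (adjusted p = 0.00471 and 0.00027).

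The same departure was computed in the nup136 background, from 8 libraries that the first one does not use: nup50c nup82 nup136 minus nup50c nup136 minus nup82 nup136 plus nup136. It called 2216 genes there (9.88%), 1159 higher (5.17%) and 1057 lower (4.71%), and was not refitted without single libraries. Of the 1073 genes of the nup50c by nup82 interaction, 411 (38.3%) had the same sign in the nup136 background, against 47.1% of all tested genes. Of the same 1073, 73 were called there in the same direction, 213 in the opposite direction and 787 were not called. The libraries labelled nup82 in the nup136 background lacked the low level of AT2G41980 given above. In this comparison nup136 and a possible difference in nup82 material therefore cannot be told apart. NUP136 was also less lowered in the libraries labelled nup82 nup136 than in the other nup136 genotypes, as given above. The difference between the departures (that in the nup136 background minus that without nup136) passed in 2141 of all tested genes (9.55%), 1141 higher (5.09%) and 1000 lower (4.46%), and in 660 of the 1073. The count of 660 holds the departure by which the genes were chosen and is no support. Across the 1073 genes Pearson's r between the departures was -0.421 and Spearman's rho -0.275, and across all tested genes they were -0.0684 and -0.0761; genes are not independent replicates, and those of the first set were chosen by one of the departures. Libraries of nup82 nup136 and nup50c nup82 nup136 held seed storage transcripts at 42.5 to 146.5 CPM in sum, against at most 2.13 CPM in the 8 libraries without nup136; the part of this in the difference was not tested.

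**Figure D5:**
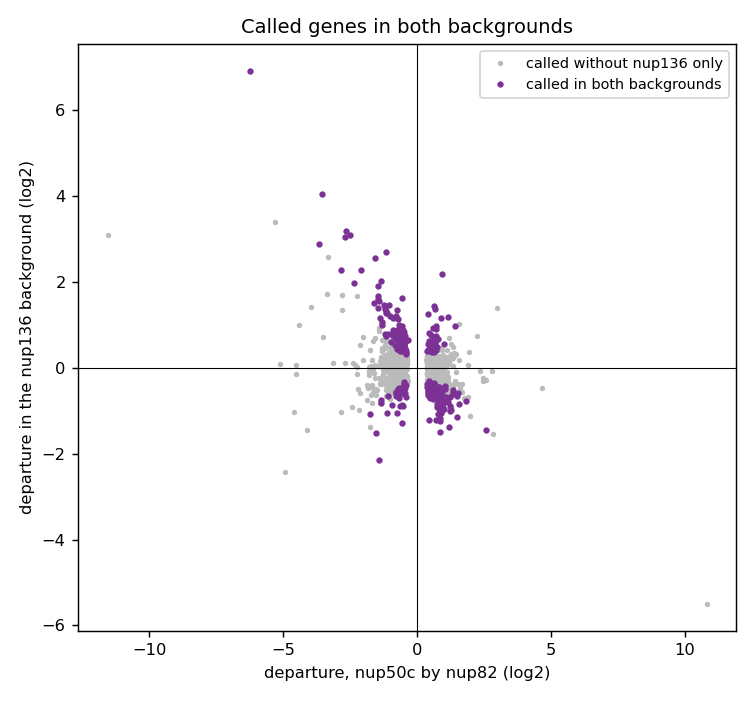
Each point is one of the 1073 genes, with its log2 departure without nup136 on the horizontal axis and in the nup136 background on the vertical axis. Purple points passed in both; more of them have opposite signs (213, upper left and lower right) than the same sign (73).

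Named genes differed in how they stood in the second background. NMT3, the departure with the lowest adjusted p, was at 79.3 and 77.6 CPM in nup50c nup82 nup136, 134 and 161 in nup50c nup136, 114 and 132 in nup82 nup136, and 241 and 247 in nup136. Its departure there was 0.08 ± 0.12 (adjusted p = 0.764), and without nup136 it was -2.31. XPL1 was at 168 and 159 CPM in nup50c nup82 nup136, 151 and 164 in nup50c nup136, 151 and 165 in nup82 nup136, and 87.9 and 82.8 in nup136 (-0.83 ± 0.12, adjusted p = 6.48e-05), the reverse sign of its departure without nup136. HSFA2 was at 7.23 and 6.13 CPM in nup50c nup82 nup136, 9.18 and 7.20 in nup50c nup136, 12.3 and 11.4 in nup82 nup136, and 2.90 and 7.83 in nup136 (-1.44 ± 0.41, adjusted p = 0.0308), also reversed. SDI1 kept its sign, at 4.73 and 4.36 CPM in nup50c nup82 nup136, 25.1 and 29.4 in nup50c nup136, 9.12 and 11.2 in nup82 nup136, and 29.7 and 27.6 in nup136 (-1.09 ± 0.23, adjusted p = 0.00418). Over all tested genes, 5.17% were higher and 4.71% lower than the sum in the nup136 background. By list, it had 16 of 33 photosynthesis genes lower and 0 higher than the sum, 12 of 33 jasmonate genes higher and 0 lower, and 3 of 20 glucosinolate genes higher and 1 lower. For these 3 lists that is the opposite majority to the one without nup136, and the difference between the departures passed in 17, 14 and 9 of the tested members. Sulfur deficiency genes were 4 of 13 lower and 0 higher in both backgrounds.

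Beside the other pairs of mutations, the 1073 genes of nup50c by nup82 stood against 1159 (5.17%) for nup50c by nup136, 550 higher (2.45%) and 609 lower (2.72%), and 1967 (8.77%) for nup82 by nup136, 772 higher (3.44%) and 1195 lower (5.33%). These contrasts share WT and single-mutant libraries with the one described here, so only the counts are given.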

How the data were processed

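Whole-seedling mRNA of 8 genotypes was measured in 16 libraries, 2 per genotype. The submitters' processing notes name HISAT2 2.0.4, HTSeq 0.6.1p1 and the TAIR10 build; the strand setting was not given in the sources used here. The deposited values are raw counts per gene for 32833 genes, 6161 of them at 0 in all libraries; the authors' FPKM values were not used. Of the gene identifiers, 32548 matched RefSeq TAIR10.1.

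All 16 libraries entered 1 edgeR 4.0.16 (R 4.3.3) quasi-likelihood fit (robust, TMM, 1 coefficient per genotype, 8 residual degrees of freedom). The filterByExpr function with a minimum count of 10 left 22427 genes, 21524 protein coding. The Benjamini-Hochberg adjustment ran over all genes tested, with a threshold of 0.05. The common biological coefficient of variation was 0.102. CPM are TMM-scaled; errors of departures are SE. The replicate numbers did not pair the samples. The steps were run on simulated counts with known departures. These were set only in genes of higher counts, so the run does not cover genes of low counts.

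The members, the 27 gene lists (481 genes, 466 tested), the design and the alternatives were chosen with earlier results of these data known. Named are the 3 mutated genes, AT2G41980, the 12 protein-coding genes with the largest departure each way among those called with a mean of at least 1 CPM, and up to 4 called members per list. Other list members, the genes shown with upstream sequence and the 6 motifs were chosen after values were seen. Alternatives were DESeq2 1.42.0 size factors and Wald test, library totals, no filter, only the 8 libraries without nup136, and a replicate block. Others were omission of each of those 8 libraries in turn and a minimum absolute log2 departure of 1. No library with nup136 was left out. Intervals at 95% for counts are exact.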

Additional observations from a re-analysis of the deposited data

Results flagged for a closer look

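For 19 of the 79 named genes that departed, the departure passed in both backgrounds with opposite sign, which flagged them; the difference between such departures passes by that choice and adds no support. The libraries labelled nup82 in the nup136 background lack the low AT2G41980 of those without nup136, so a difference in nup82 material cannot be told apart from nup136 here. The departure in the nup136 background minus that without nup136 was -4.02 for HSFA2, -2.60 for SCPL34, -1.82 for XPL1, -1.15 for RBCS2B, -0.97 for LHCB2.3 and -0.88 for CRWN1, all higher than the sum without nup136. Among genes lower than the sum without nup136, the difference was 7.59 for AT1G57630, 5.10 for MAPKKK19, 5.75 for AT1G61610 (a receptor-like kinase), 5.59 for AT4G37290 (the secreted peptide PIP2), 4.32 for JAZ5, 2.54 for JAZ1 and 3.86 for CYP71A12 of camalexin synthesis. It was 2.39 for SOT17 and 2.70 for FMOGS-OX1 of glucosinolate synthesis, 0.95 for LBD38, 1.41 for ABI1 (a phosphatase of abscisic acid signalling) and 5.83 for AT5G64190. For GSTU3 the fitted value was 13.16, which rests on 2 WT counts and depends on the prior count of the fit. Without any 1 library of several the departure without nup136 lost its call for AT5G64190 (7 of 8 libraries), AT1G61610, AT4G37290, CYP71A12 and LBD38 (5 each), CRWN1 (3), and LHCB2.3 and AT1G57630 (2 each); that of CYP71A12 was at the threshold (adjusted p = 0.04996). Departures in the nup136 background were not refitted without single libraries, so how far they rest on 1 library is not known. With 2 libraries per genotype no single library could be marked as standing apart from its group.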

How the results depend on the processing

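The number of departing genes was 1073, and all 1073 kept their sign under every alternative with a value for them (1072 when only the 8 libraries were fitted, which tests fewer genes). DESeq2 size factors gave 1104 genes, library totals 1102 and the DESeq2 Wald test 1439. The replicate numbers did not pair the samples. Deviations of replicate 1 from its genotype mean, compared across genes between pairs of genotypes, gave 28 correlations of -0.0574 to 0.0468. With a replicate block 1162 genes were called, 1051 of them shared. Without a filter on low counts there were 1742 genes (986 lower), and with only the 8 libraries 858 lower ones. An absolute log2 departure of at least 1 left 285 genes (100 higher, 185 lower). Leaving out 1 library gave 515 to 966 genes (258 to 417 higher, 257 to 549 lower). Against WT and without a filter, the counts were 728 in nup50c nup82 (405 higher, 323 lower), 855 in nup50c (451 and 404) and 924 in nup82 (610 and 314). With only the 8 libraries they were 442 in nup50c nup82 (240 and 202) and 577 in nup82 (343 and 234). By the DESeq2 Wald test, departing members were 9 in the jasmonate list (5 in edgeR), 6 in the heat shock list (3), 11 in the phosphate list (7), 5 in the clock list (3) and 1 in the cold list (3). The cause of these changes was not tested. The share of departing genes with both single effects of opposite sign was 92.5% to 98.8% over all settings (a check chosen after seeing the data). Of 664 values of named genes without 1 library, 195 lost the call and 1 changed sign: AT2G41980, not called, ranged over these fits from -0.18 without nup50c nup82 replicate 2 to 0.53 without replicate 1 of that genotype. Departures combine 8 libraries, and genes of low counts are the least certain.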
